A study of Homo sapiens with 16 samples.

Results

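GREB1, TFF1, TFF3, PDZK1, CTSD, CA12 and AGR2 are known from breast cancer cells as genes that respond to estrogen, and they were chosen by name, as 7 of the 26364 genes in the count tables. Their levels without hormone, the time of their first change and the size of that change were compared between a breast and an endometrial cell line. Bulk RNA-seq had been performed on T-47D cells, a line from a breast ductal carcinoma, and on Ishikawa cells, a line from an endometrioid adenocarcinoma. Both lines were kept in hormone-deprived medium and then given 10 nM of the estrogen 17β-estradiol (E2) for 2, 4 or 8 h, and the 0 h samples received vehicle. The vehicle at 0 h is stated in the paper's methods, whereas the sample labels give 10 nM for the 0 h samples as well. Each line and time point had 2 libraries, which gave 8 libraries per line and 16 in all. Each group therefore came from 1 established line, and whether the 2 libraries of a group came from separate cultures is not given in the sources used here, so p-values measure only the spread between these libraries.

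Estrogen receptor α, encoded by ESR1, is a nuclear receptor that binds E2, attaches to DNA at estrogen response elements, mostly in enhancers away from promoters, and recruits coactivators. In breast cells it works beside FOXA1 and GATA3, factors that open or mark its enhancers. The genes described here do different jobs downstream of it: GREB1 encodes a chromatin-bound cofactor of the receptor, TFF1 and TFF3 encode small secreted trefoil peptides of mucous epithelia, PDZK1 encodes a scaffold with PDZ domains, CTSD encodes the lysosomal protease cathepsin D, CA12 encodes a carbonic anhydrase of the cell membrane, and AGR2 encodes a protein disulfide isomerase of the endoplasmic reticulum.

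RefSeq promoter windows (GRCh38.p14) were held for 4 of the genes, and they are shown because an estrogen response element is built from 2 copies of the letters GGTCA facing each other. Each run covers the 250 bases before the start of the gene, written 5′ to 3′ in the direction of transcription, and capitals mark GGTCA or its reverse complement TGACC.
PDZK1, chr1:145707401-145707650 on the minus strand: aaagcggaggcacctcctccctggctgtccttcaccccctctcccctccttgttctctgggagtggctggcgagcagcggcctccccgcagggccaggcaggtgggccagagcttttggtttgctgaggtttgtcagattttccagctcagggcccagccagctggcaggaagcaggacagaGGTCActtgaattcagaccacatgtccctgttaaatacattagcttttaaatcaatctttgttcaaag
CTSD, chr11:1763928-1764177 on the minus strand: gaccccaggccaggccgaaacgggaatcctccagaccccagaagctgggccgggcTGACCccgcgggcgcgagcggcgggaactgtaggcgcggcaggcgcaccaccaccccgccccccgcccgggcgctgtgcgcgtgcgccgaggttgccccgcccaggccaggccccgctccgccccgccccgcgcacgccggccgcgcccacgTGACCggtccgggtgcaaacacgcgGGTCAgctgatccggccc
CA12, chr15:63381847-63382096 on the minus strand: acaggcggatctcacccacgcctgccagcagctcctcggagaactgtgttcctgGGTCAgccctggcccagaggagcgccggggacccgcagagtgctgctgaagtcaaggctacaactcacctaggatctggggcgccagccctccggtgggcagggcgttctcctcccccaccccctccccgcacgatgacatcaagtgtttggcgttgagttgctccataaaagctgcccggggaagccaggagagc
AGR2, chr7:16805000-16805249 on the minus strand: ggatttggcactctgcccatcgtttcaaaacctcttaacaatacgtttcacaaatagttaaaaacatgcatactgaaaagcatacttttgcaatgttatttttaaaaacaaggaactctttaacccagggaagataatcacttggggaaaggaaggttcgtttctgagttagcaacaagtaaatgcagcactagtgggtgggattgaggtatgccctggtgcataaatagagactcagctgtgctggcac
The CTSD window held 3 of these short motifs, those of PDZK1 and CA12 held 1 each, and that of AGR2 held 0. The short motif, on either strand, occurred in 32.6% of the 35116 RefSeq windows of the same length. The full palindrome, GGTCA followed by TGACC after any 3 bases, occurred in 14 windows (0.0399%) and in 0 of the 4 shown. A match in these letters is a description of the window and not a binding site.

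Libraries held 41177912 to 58918642 counts in Ishikawa cells and 41223813 to 64148903 in T-47D cells, so that 3 counts, taken as the floor of detection, corresponded to 0.0479 to 0.0742 CPM (counts scaled to library size, here with TMM factors over the 16 libraries). Floors cover counting error only. The 7 breast luminal markers summed to 6350 to 7280 CPM in T-47D cells, where 4 of 7 had a mean over 1 CPM (GATA3, TRPS1, SPDEF and KRT19), against 198 to 231 CPM in Ishikawa cells. The 7 endometrial markers summed to 764 to 840 CPM in Ishikawa cells and to 1.63 to 2.82 CPM in T-47D cells, with SOX17 and EMX2 at 0 counts in the latter. The Ishikawa libraries labelled 4 h and 8 h were close to each other: 2 of 15787 genes differed between the labels with edgeR's quasi-likelihood test (554 at an unadjusted p under 0.05, and 2 with DESeq2). The second 4 h library lay nearer to the first 8 h library (root mean square difference of 0.329 in log2 CPM over genes) than to the other 4 h library (0.391). The 8 h libraries differed from each other by 0.353, and the remaining pairs across the labels by 0.363, 0.365 and 0.378. For the 7 genes, results from these times in Ishikawa cells are therefore also given with these 4 libraries as 1 group.

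Without E2, all 7 genes were higher in T-47D than in Ishikawa cells, and those with counts in both lines by 1.68-fold for CTSD, 8.38-fold for PDZK1, 13.6-fold for GREB1, 78.0-fold for CA12 and 354-fold for AGR2. CTSD was the one member that both lines expressed strongly. TFF1 and TFF3 had 0 counts in all 8 Ishikawa libraries. The test of T-47D against Ishikawa at 0 h, in a fit of all 16 libraries, called the 5 members with counts in both lines higher, where 39.5% of the 17090 genes tested were called higher and 81.9% were called in either direction. TFF1 and TFF3 entered that fit through their T-47D counts alone, so a call of them as higher was given in advance and is not counted. A difference of this kind was thus common between the lines, and in bulk RNA a smaller share of expressing cells and less RNA per cell cannot be told apart.

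**Figure D1:**
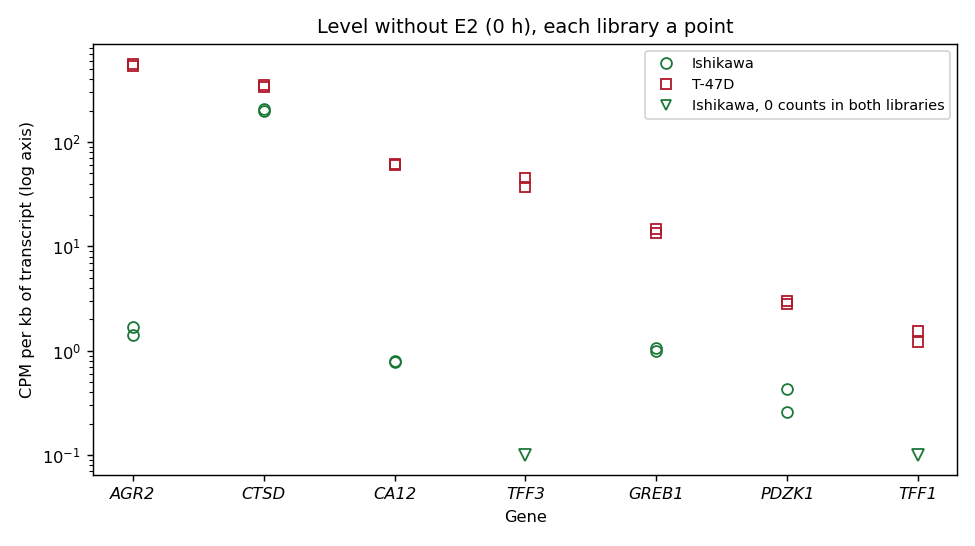
Level at 0 h of each gene in CPM per kb of transcript (log axis), 1 point per library, with Ishikawa as green circles and T-47D as red squares; triangles mark genes with 0 counts in both Ishikawa libraries and have no height of their own. In T-47D cells the means run from 552 (AGR2) to 1.38 (TFF1), and CTSD is the gene at which the lines come closest.

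Per kb of transcript, the level in T-47D cells at 0 h was highest for AGR2, at 552 ± 17.9 CPM per kb (SD, n = 2), followed by CTSD at 343 ± 8.17. CA12 stood at 61.3 ± 0.519 CPM per kb, TFF3 at 41.2 ± 5.30 and GREB1 at 14.0 ± 0.839. PDZK1 at 2.92 ± 0.144 CPM per kb and TFF1 at 1.38 ± 0.242 were lowest. No neighbours in this order overlapped in their 2 libraries. In Ishikawa cells CTSD led at 205 ± 6.03 CPM per kb, and the next gene, AGR2, reached 1.56 ± 0.205. GREB1 at 1.03 ± 0.0579, CA12 at 0.785 ± 0.0152 and PDZK1 at 0.346 ± 0.125 CPM per kb followed, again with no overlap between neighbours. AGR2, which led the order in T-47D cells, thus lay close to GREB1, CA12 and PDZK1 in Ishikawa cells, with CTSD far above them.

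GREB1 (chr2:11622467-11782914 on the plus strand of hg19, positions from the GENCODE annotation of GRCh37), the cofactor of the receptor, rose in both lines by 2 h, and more of the T-47D change was reached by then. In T-47D cells its 2 libraries held 115 and 125 CPM at 0 h, 400 and 425 after 2 h, 468 and 502 after 4 h, and 528 and 533 after 8 h. In Ishikawa cells they held 8.47 and 9.17 CPM at 0 h, 13.0 and 14.0 after 2 h, 28.2 and 25.8 after 4 h, and 24.4 and 31.1 after 8 h. Every E2 library lay above both 0 h libraries of its line, and the highest Ishikawa library stayed below the lowest T-47D library. On the log2 scale the T-47D change was 1.78 ± 0.05 (SE) after 2 h, 2.01 ± 0.05 after 4 h and 2.15 ± 0.05 after 8 h (adjusted p = 8.08e-14, 1.02e-14 and 3.68e-15, from edgeR's quasi-likelihood test, adjusted after Benjamini-Hochberg, as for every adjusted p here). The Ishikawa change was 0.63 ± 0.12 after 2 h (adjusted p = 0.00511), 1.62 ± 0.12 after 4 h (2.33e-07) and 1.65 ± 0.12 after 8 h (1.73e-07), and 1.63 with the 4 and 8 h libraries as 1 group (1.42e-08). The change after 2 h was 82.7% of that after 8 h in T-47D cells and 38.0% in Ishikawa cells, on the log2 scale. The later step was therefore the larger one in Ishikawa cells, where 4 and 8 h together exceeded 2 h by 1.01 ± 0.10 (adjusted p = 1.96e-05), while the T-47D step from 2 to 4 h was 0.24 ± 0.05 (0.00728, and 0.158 to 0.183 when the first 2 h or the second 4 h library was left out). Without the second 2 h library the Ishikawa change after 2 h was 0.58 with an adjusted p of 0.0654.

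TFF1 (chr21:43782391-43786644, minus strand) and TFF3 (chr21:43731777-43735519, minus strand), trefoil genes with TFF2 between them, were measured in T-47D cells alone. Both had 0 counts in every Ishikawa library, so that neither was detected there after E2. TFF1 was scarce in T-47D cells, with 33 and 24 counts at 0 h, 52 and 52 after 2 h, 127 and 79 after 4 h, and 135 and 81 after 8 h. These counts corresponded to 0.762 and 0.594 CPM at 0 h and to 2.77 and 1.65 CPM after 8 h, and every E2 library lay above both 0 h libraries. Its change did not pass after 2 h (0.79 ± 0.32, adjusted p = 0.141) except with no filter on low counts (0.80, 0.0427), and it passed after 4 h (1.40 ± 0.30, 0.00227) and 8 h (1.70 ± 0.29, 0.000243). TFF3, far more abundant, held 38.9 and 32.4 CPM at 0 h, 37.9 and 37.1 after 2 h, 39.6 and 36.3 after 4 h, and 46.4 and 37.5 after 8 h. The 8 h libraries of TFF3 overlapped those at 0 h, and its change was 0.06 after 2 h, 0.08 after 4 h and 0.23 ± 0.09 after 8 h (95% interval 0.04 to 0.42, adjusted p = 0.0657). That last value passed at 0.37 (adjusted p = 0.00715) without the first 0 h library and at 0.38 (0.0049) without the second 8 h library, and with the replicate number as a block (0.23, 0.0235). Against the Ishikawa floor of 3 counts per library at 0 h (0.0633 CPM), TFF1 was at least 10.7-fold and TFF3 at least 564-fold higher in T-47D cells. These bounds take each count as a separate read pair, and they would be lower if both reads of a pair were counted. TFF2, the other trefoil gene, had 0 counts in all 16 libraries.

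PDZK1 (chr1:145726918-145764207 on the plus strand of hg19, where its strand is the opposite of that in GRCh38.p14), the PDZ scaffold, rose in T-47D cells in a pair of steps, while its Ishikawa values stayed low and were spread too widely for a call. In T-47D cells the libraries held 6.23 and 5.81 CPM at 0 h, 11.7 and 13.3 after 2 h, 11.8 and 12.9 after 4 h, and 16.4 and 22.1 after 8 h. In Ishikawa cells they held 0.532 and 0.898 CPM at 0 h, 1.12 and 1.12 after 2 h, 0.729 and 0.888 after 4 h, and 1.37 and 1.33 after 8 h, from 25 to 82 counts per library. The T-47D groups at 2 and 4 h overlapped each other and lay clear of 0 h below and 8 h above. The T-47D change was 1.04 ± 0.13 after 2 h (adjusted p = 2.88e-05), 1.03 ± 0.13 after 4 h (1.75e-05) and 1.68 ± 0.13 after 8 h (2.45e-08). The step from 4 to 8 h, 0.65 ± 0.12, passed (0.00462) but fell to 0.42 (0.0636) without the second 8 h library and to 0.58 (0.055) without the first 4 h library. In Ishikawa cells the change was 0.65 ± 0.32 after 2 h (adjusted p = 0.326), 0.18 ± 0.34 after 4 h (0.769) and 0.91 ± 0.32 after 8 h (0.051), and 0.61 (0.176) with the 4 and 8 h libraries as 1 group. The Ishikawa value after 8 h passed narrowly under several alternatives, at 0.90 (0.0252) with no filter on low counts and at 1.34 (0.0489) without the second 0 h library.

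CTSD (chr11:1773982-1785803, minus strand), the lysosomal protease, rose steadily in T-47D cells and passed at no time in Ishikawa cells. In T-47D cells it held 717 and 693 CPM at 0 h, 779 and 785 after 2 h, 867 and 871 after 4 h, and 1140 and 1020 after 8 h. In Ishikawa cells it held 411 and 429 CPM at 0 h, 410 and 402 after 2 h, 408 and 402 after 4 h, and 399 and 390 after 8 h. The T-47D groups did not overlap and followed the order of time, and the Ishikawa E2 libraries all lay just below the 0 h pair. The T-47D change was 0.14 ± 0.04 after 2 h (adjusted p = 0.044), 0.30 ± 0.04 after 4 h (5.57e-05) and 0.61 ± 0.04 after 8 h (5.42e-09), a 1.53-fold rise. The step from 4 to 8 h, 0.32 ± 0.04, also passed (0.00037). The 2 h call did not hold when the second 0 h library or either 2 h library was left out (0.13 to 0.15, adjusted p = 0.166 to 0.218). The Ishikawa change was -0.04 after 2 h, -0.05 after 4 h and -0.10 ± 0.05 after 8 h (95% interval -0.20 to 0.01, adjusted p = 0.207), and -0.07 (0.258) with the 4 and 8 h libraries as 1 group, so that the interval after 8 h excluded a rise of the T-47D size. CTSD shares 11203 bases with another annotated gene on the same strand and 2139 bases with PRADX on the opposite one in the GENCODE annotation, and the strand setting of the counting is not given in the sources used here, so reads of these genes cannot be told apart.

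CA12 (chr15:63613577-63674045, minus strand), the carbonic anhydrase, rose in both lines by 2 h, and it was the gene whose fold change was larger in Ishikawa cells. In Ishikawa cells it held 4.85 and 4.72 CPM at 0 h, 17.8 and 18.8 after 2 h, 29.4 and 39.8 after 4 h, and 37.8 and 35.8 after 8 h. In T-47D cells it held 376 and 371 CPM at 0 h, 537 and 564 after 2 h, 595 and 623 after 4 h, and 588 and 607 after 8 h. The E2 libraries of each line lay above its 0 h libraries, and the highest Ishikawa library was still far below the T-47D libraries without hormone: the T-47D mean at 0 h was 10.2 times the Ishikawa mean after 8 h. The Ishikawa change was 1.94 ± 0.13 after 2 h (adjusted p = 1.44e-07), 2.86 ± 0.13 after 4 h (1.21e-09) and 2.94 ± 0.13 after 8 h (8.92e-10), a 7.67-fold rise, and 2.90 (8.82e-11) with the 4 and 8 h libraries as 1 group. The T-47D change was 0.55 ± 0.04 after 2 h (1.53e-08), 0.70 ± 0.04 after 4 h (4.34e-10) and 0.68 ± 0.04 after 8 h (4.81e-10), a 1.60-fold rise. Ishikawa cells gained a further 0.96 ± 0.10 from 2 h to the later libraries (adjusted p = 3.49e-05). The T-47D step from 2 to 4 h was 0.15 ± 0.04 (0.0416), a call that was lost without any one of the 4 libraries compared (0.11 to 0.18, adjusted p = 0.10 to 0.47), and that from 4 to 8 h was -0.02 (0.843).

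AGR2 (chr7:16831435-16873057, minus strand), the disulfide isomerase, was the most abundant of these genes per kb in T-47D cells and changed little there. In T-47D cells it held 958 and 915 CPM at 0 h, 994 and 977 after 2 h, 979 and 973 after 4 h, and 1060 and 1070 after 8 h. In Ishikawa cells it held 2.89 and 2.40 CPM at 0 h, 2.12 and 2.73 after 2 h, 0.996 and 1.85 after 4 h, and 2.16 and 0.666 after 8 h, from 30 to 153 counts per library. All T-47D E2 libraries lay above the 0 h pair and the 8 h pair lay highest, whereas the Ishikawa libraries at 4 and 8 h were split into a higher and a lower one at each label. The T-47D change was 0.07 after 2 h (adjusted p = 0.257), 0.05 after 4 h (0.283) and 0.18 ± 0.03 after 8 h (0.000341), a 1.14-fold rise. In Ishikawa cells the change was -0.11 ± 0.37 after 2 h (0.91), -0.88 ± 0.39 after 4 h (0.148) and -0.87 ± 0.38 after 8 h (0.116). With the 4 and 8 h libraries as 1 group it was -0.88 (adjusted p = 0.0512), and leaving out the first 8 h library gave -1.98 for 8 h (0.00202). A lower level was called with no filter on low counts, at -0.90 after 4 h (0.00222) and -0.88 after 8 h (0.00142), and after 4 h also with only the time points compared (-0.89, 0.0296) and without either 8 h library (-0.89, 0.0354 and 0.0341). Whether AGR2 was called in Ishikawa cells thus varied with the filter and with the libraries used.

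**Figure D2:**
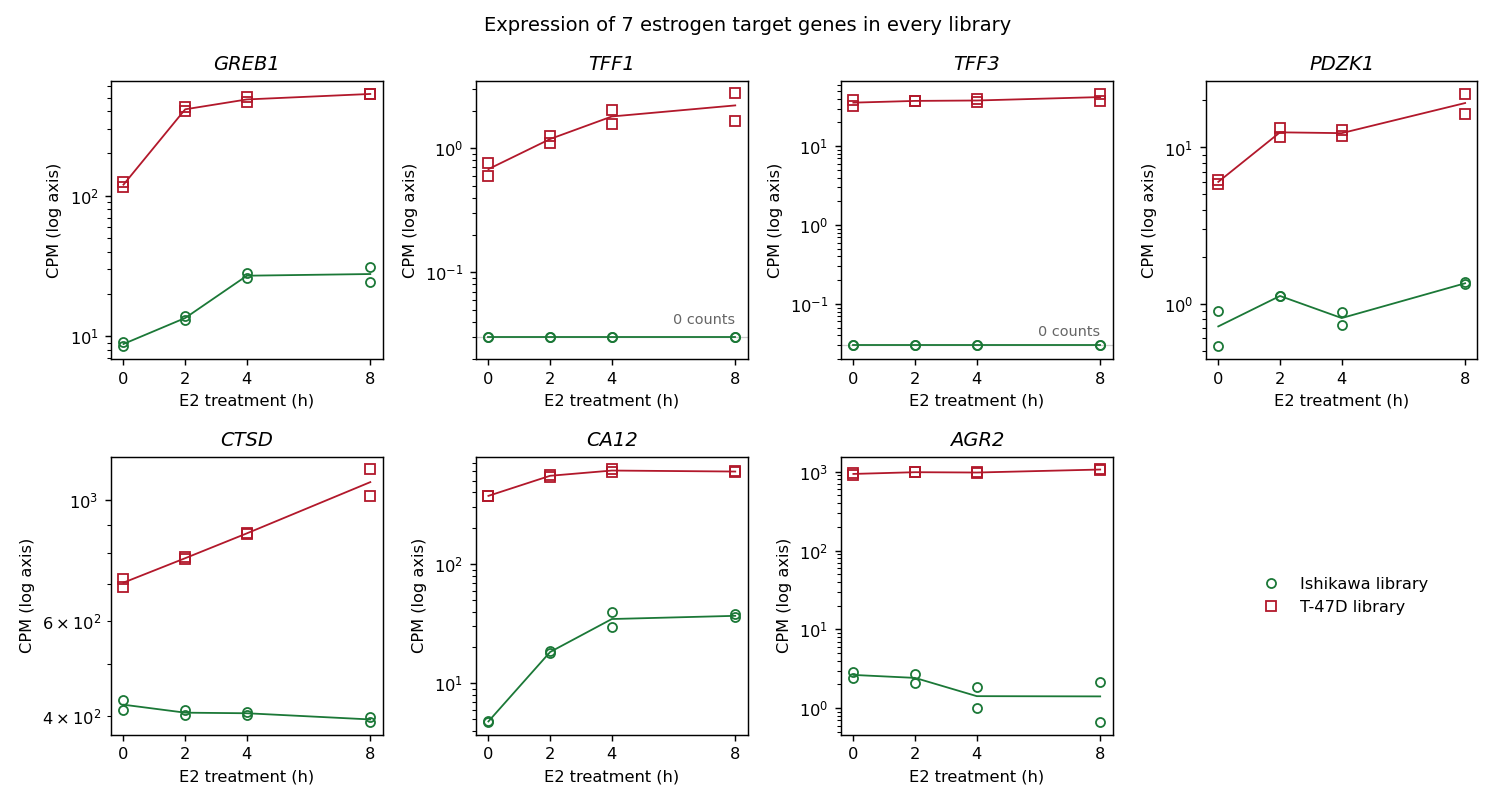
CPM (log axis, a scale for each panel) against hours of E2, with 1 point per library and lines through the means of 2 libraries, for Ishikawa (green circles) and T-47D (red squares). The Ishikawa points of TFF1 and TFF3 are 0 counts drawn on a marked line at the bottom, GREB1 and CA12 climb in both lines, and CTSD climbs in T-47D cells from a mean of 705 to 1080 CPM.

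Counted over the genes, 4 of 7 rose in T-47D cells after 2 h (GREB1, PDZK1, CTSD and CA12), where 9.3% of the 15594 genes tested were called in either direction and 4.9% were called higher. At 4 h TFF1 joined them, for 5 of 7, against 21.5% of all genes called and 11.1% called higher. At 8 h AGR2 joined as well, for 6 of 7, against 29.7% called and 15.4% called higher, and TFF3 alone did not pass at any time. The median change over the 7 genes after 8 h was 0.68, beside 0.003 over all genes tested. From 2 to 4 h GREB1 and CA12 were called, 2 of 7 against 3.4% of all genes, and from 4 to 8 h PDZK1, CTSD and AGR2 were called, 3 of 7 against 3.42%. The AGR2 step from 4 to 8 h, 0.13 ± 0.03 (adjusted p = 0.0359), was lost in 6 of the 8 fits that left out 1 library.

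In Ishikawa cells 5 genes passed the filter on low counts and TFF1 and TFF3, at 0 counts, did not. Of the 5, GREB1 and CA12 were called higher after 2, 4 and 8 h and 0 were called lower, and DESeq2 called the same genes. Over all 15787 genes tested, 4.35% were called after 2 h (2.61% higher), 14.3% after 4 h (7.66% higher) and 22.1% after 8 h (12.0% higher). From 2 h to the later libraries as 1 group, GREB1 and CA12 were called again, where 4.84% of genes were. Ranked from the highest fold change, CA12 stood 33rd of 15787 genes in Ishikawa cells after 8 h and GREB1 stood 115th. In T-47D cells GREB1 stood 80th of 15594, TFF1 137th and PDZK1 140th, whereas CA12 stood 738th.

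**Figure D3:**
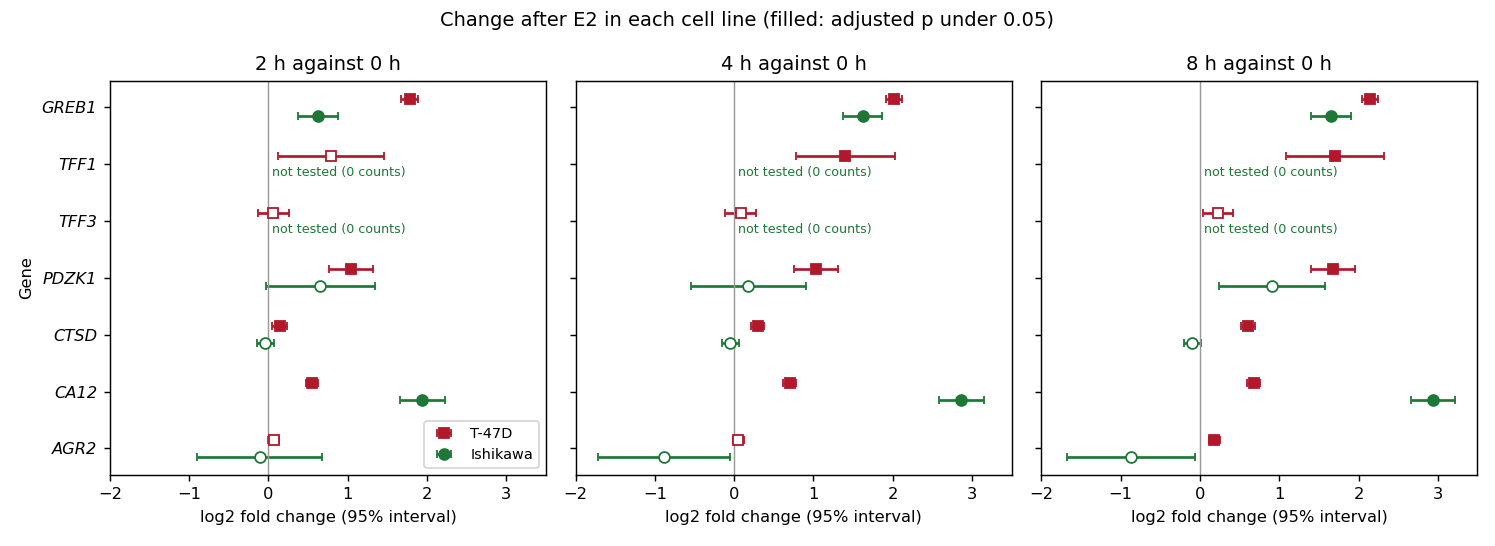
Log2 fold change against 0 h with its 95% interval for each gene after 2, 4 and 8 h, with Ishikawa as green circles and T-47D as red squares; filled symbols passed an adjusted p under 0.05, and genes with 0 counts in Ishikawa cells carry no symbol. The GREB1 intervals of the lines lie apart at every time, most widely after 2 h. CA12 lies to the right in Ishikawa cells at every time, at 2.94 against 0.68 after 8 h.

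Whether the lines changed by different amounts was tested as the interaction of line and time over all 16 libraries, for the 5 genes with counts in both. At 2 h the test called 2 of 5, GREB1 and CA12, in opposite directions, where 2.67% of 17090 genes were called. The GREB1 change was larger in T-47D cells by 1.17 ± 0.13 on the log2 scale (95% interval 0.90 to 1.44, adjusted p = 5.05e-06), and the CA12 change was smaller there by a difference of -1.38 ± 0.14 (-1.67 to -1.09, 1.5e-06). At 4 h it called 2 of 5, CTSD and CA12, against 6.03% of all genes, and after 8 h 4 of 5, against 10.0%. The CA12 difference was -2.15 ± 0.14 after 4 h (2e-09) and -2.27 ± 0.13 after 8 h (95% interval -2.55 to -1.99, 6.14e-10). CTSD differed by 0.35 ± 0.07 after 4 h (0.00238) and by 0.71 ± 0.07 after 8 h (0.56 to 0.85, 4.85e-07). With the 4 and 8 h libraries as 1 group in each line, the difference was -2.21 for CA12 (6.43e-11) and 0.54 for CTSD (0.00151).

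The GREB1 difference was smaller at 4 and 8 h than at 2 h. Its values were 0.41 ± 0.13 after 4 h (95% interval 0.14 to 0.67, adjusted p = 0.0623) and 0.50 ± 0.12 after 8 h (0.24 to 0.76, 0.012). With the 4 and 8 h libraries as 1 group it was 0.45 (0.0146), and the 8 h value was 0.29 (0.0872) without the first Ishikawa 8 h library, 0.44 (0.0768) without the second Ishikawa 0 h library and 0.44 (0.0572) without the first T-47D 0 h library. The GREB1 difference after 4 h was called by DESeq2 (0.37, adjusted p = 0.0378) and with no filter on low counts (0.39, 0.000863). It was also called with only the time points compared (0.39, 0.0429), but not with a replicate block (0.40, 0.0515). After 8 h the GREB1 difference was not called with only the time points compared (0.47, 0.0525). AGR2 differed by 1.00 ± 0.30 after 8 h (adjusted p = 0.0354). This was not called by DESeq2 (1.05, adjusted p = 0.285), by the fit with a replicate block (1.01, 0.0589) or with only the time points compared (0.97, 0.0718). Over the fits without 1 library it ranged from 0.45, without the second Ishikawa 8 h library, to 2.13. With the 4 and 8 h libraries as 1 group the AGR2 difference was 0.97 and passed (0.0199). For PDZK1 the difference was 0.41 after 2 h (95% interval -0.24 to 1.05), 0.86 after 4 h (0.18 to 1.54) and 0.76 after 8 h (0.13 to 1.39), and none passed the adjustment (0.787, 0.147 and 0.126), nor did 0.77 (0.301) with the 4 and 8 h libraries as 1 group.

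For CA12 the line with the larger fold was not the line with more transcript added. By 8 h CA12 had gained 32.0 ± 1.46 CPM in Ishikawa cells (difference of the means of 2 libraries, with the SDs combined) and 224 ± 13.8 CPM in the T-47D line, 6.99 times as much. The gain of GREB1 was 18.9 ± 4.79 CPM in the Ishikawa line and 411 ± 8.23 CPM in the T-47D line, 21.7 times as much. The ratio of the T-47D to the Ishikawa mean of CA12 went from 78.1 at 0 h through 30.0 and 17.6 to 16.2 after 8 h. For GREB1 this ratio went from 13.6 at 0 h to 30.5 after 2 h and then to 18.0 after 4 h and 19.1 after 8 h, so that after E2 the lines lay closer together for CA12 and farther apart for GREB1.

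**Figure D4:**
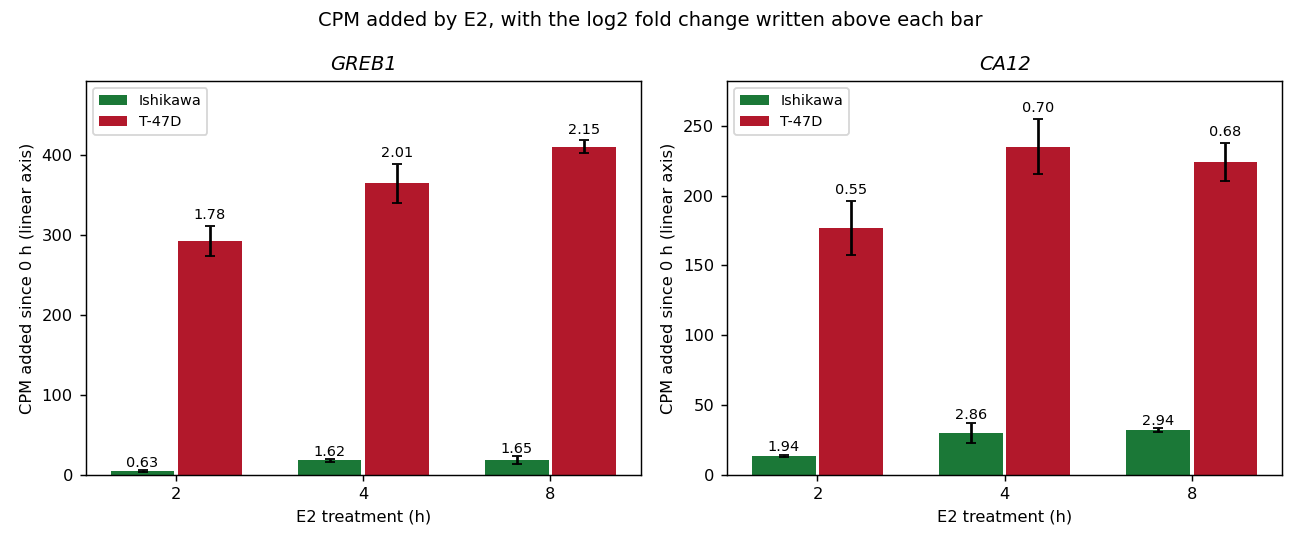
CPM added since 0 h (linear axis from 0) for GREB1 and CA12 after 2, 4 and 8 h of E2, as the difference between means of 2 libraries with combined SD as error bars, for Ishikawa (green) and T-47D (red); numbers above the bars are log2 fold changes. The T-47D bars are the taller ones for both genes, while the CA12 fold changes are larger in Ishikawa cells.

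Relatives and partners of the 7 genes were 14 in all. In T-47D cells 9 of the 14 passed the filter, and after 8 h 2 rose and 1 fell (33.3%, beside 29.7% of all genes), with a median of -0.05. After 2 h 2 of these 9 had risen and 1 had fallen (33.3%, beside 9.3% of all genes). In Ishikawa cells 11 passed it, and after 8 h 2 rose and 1 fell (27.3%, beside 22.1% of all genes), with a median of -0.01. AGR3, the neighbouring paralog of AGR2 (chr7:16899036-16921611), rose in T-47D cells from 32.9 and 29.0 CPM at 0 h to 53.0 and 53.3 after 8 h, by 0.31 ± 0.07 after 2 h (adjusted p = 0.00532) and 0.78 ± 0.07 after 8 h (7.42e-08). It had 0 to 8 counts per library in Ishikawa cells. The AGR3 call after 2 h was lost without the second 0 h library (0.23, 0.0756) or the first 2 h library (0.31, 0.0531).

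CA2, a cytosolic carbonic anhydrase, showed the opposite distribution to CA12 in that T-47D libraries held 0 to 2 counts. In Ishikawa cells it held 26.3 and 21.5 CPM at 0 h, 32.6 and 34.7 after 2 h, 85.8 and 57.3 after 4 h, and 56.1 and 84.7 after 8 h, and it rose by 1.59 ± 0.18 after 4 h (adjusted p = 2.48e-05) and 1.55 ± 0.18 after 8 h (2.76e-05). SLC9A3R1, which encodes another PDZ scaffold and is expressed in both lines, rose in both, from 115 and 111 CPM to 256 and 208 after 8 h in Ishikawa cells (1.04 ± 0.09, adjusted p = 1.32e-06) and from 417 and 389 to 831 and 793 in T-47D cells (1.01 ± 0.04, 3.19e-12). Its relative SLC9A3R2 fell after 8 h in T-47D cells by 0.26 (0.000354) and in Ishikawa cells by 0.22 (0.0157), the latter lost without the second 0 h or the first 8 h library (adjusted p = 0.0949 and 0.137). GREB1L, the paralog of GREB1, stayed between 8.21 and 11.0 CPM in all 16 libraries.

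The receptor itself changed in opposite directions. ESR1 held 242 and 228 CPM at 0 h and 169 and 177 after 8 h in Ishikawa cells, and 171 and 166 at 0 h and 204 and 208 after 8 h in T-47D cells. The line with less of the 7 target transcripts thus had more ESR1 before E2, with T-47D lower by a log2 difference of -0.48 ± 0.05 (adjusted p = 1.36e-08). By 8 h ESR1 had fallen by 0.45 in Ishikawa cells (6.05e-05) and risen by 0.29 ± 0.04 in T-47D cells (5.68e-05), and the lines differed in this change by 0.74 ± 0.07 (3.4e-07). FOXA1 stood at 431 and 411 CPM in T-47D cells and 11.2 and 11.4 in Ishikawa cells at 0 h, a log2 difference of 5.22 ± 0.07 (5.4e-23). After 2 h in T-47D cells it fell to 298 and 318 CPM (by 0.46, adjusted p = 1.14e-06). It then held 387 and 381 CPM after 4 h and 381 and 409 after 8 h. GATA3 held 1200 and 1230 CPM in T-47D cells at 0 h and 0 to 4 counts per library in Ishikawa cells. TFAP2C, which encodes an AP-2 factor, rose after 2 h in T-47D cells by 0.59 ± 0.04 (3.37e-08) and in Ishikawa cells by 0.94 ± 0.18 (0.00507). The Ishikawa value was 0.84 without the second 0 h library and also 0.84 without the first 2 h library, and its call was lost in both of these fits. The Ishikawa mean of TFAP2C went from 5.22 CPM at 0 h to 9.98 after 2 h, and was 6.21 after 4 h and 6.47 after 8 h.

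Among 48 other genes listed as E2 targets, 42 were tested in Ishikawa and 47 in T-47D cells. At 2 h 16 rose and 1 fell in Ishikawa cells, where 4.35% of all genes were called, and 37 rose and 1 fell in T-47D cells, where 9.3% were. At 8 h 23 rose and 4 fell in Ishikawa cells (median 0.51, beside -0.009 over all genes, of which 22.1% were called), and 40 rose and 3 fell in T-47D cells (median 1.01, beside 0.003, with 29.7% called). The list was drawn up with results of these data known and is no independent evidence of its direction. The largest changes after 8 h were those of PGR, WISP2 and TGFA in Ishikawa cells (3.75, 2.41 and 1.88) and of KRT13, KCNK5 and CXCL12 in T-47D cells (5.89, 4.69 and 4.27). At 0 h WISP2 had 2 and 3 counts in Ishikawa cells, and KRT13 had 3 and 2 in T-47D cells. Both starts lay at or below the floor of 3 counts, so the size of these 2 fold changes is uncertain. The lowest were those of CYP1A1, ZNF703 and ADCY9 in Ishikawa cells (-1.47, -0.24 and -0.22) and of CYP1A1, ERBB2 and P2RY2 in T-47D cells (-1.03, -0.96 and -0.36). PGR, which encodes the progesterone receptor, changed by 3.75 ± 0.18 after 8 h in Ishikawa cells (adjusted p = 2.48e-09) and by 1.09 ± 0.04 in T-47D cells (6.51e-13). Of the Ishikawa values, those of WISP2, ZNF703 and ADCY9 lost their call in at least 3 of the fits that left out 1 library.

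The genes with the most similar course were found by Pearson's r of log2 CPM over the 8 libraries of a line, among 13181 genes in Ishikawa and 13027 in T-47D cells, as a description of libraries that share treatment and depth. In T-47D cells GREB1 was followed most closely by RAPGEFL1 and AMZ1 (r = 0.997 for both), CA12 by HSPB8 (0.996) and PPM1K (0.995), and CTSD by SYN1 (0.995) and EMC1 (0.994). PDZK1 was closest to ESR1 (r = 0.984) and ZNF473 (0.982), TFF1 to CFAP99 (0.988) and GRWD1 (0.984), AGR2 to TRAIP (0.982) and PCNA (0.975), and TFF3 to SF3B6 (0.971) and TPI1 (0.947). In Ishikawa cells GREB1 was closest to DKC1 (r = 0.996) and GDPD5 (0.995), CA12 to SLC22A5 (0.993) and KAZN (0.993), and CTSD to FUK (0.988) and S100A1 (0.977). AGR2 was closest to NELL2 (r = 0.978) and SCEL (0.977) and PDZK1 to TCEA2 (0.951) and COX16 (0.949) in that line. No gene was among the closest pair of the same member in both lines.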

How the data were processed

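Bulk poly(A) RNA-seq libraries were made with a directional kit from Ishikawa and T-47D cells. The authors mapped the reads on hg19 with HISAT2, handled alignments with SAMtools, counted reads per UCSC Known Gene with featureCounts and used DESeq2, and they deposited raw counts per gene symbol in a table for each line. Versions, strand setting and the handling of read pairs and multi-mapping reads are not given in the sources used here. Among counts of 1 to 10, 71.2% to 74.6% were even, so that counts may hold both reads of a pair and counting intervals may then be too narrow. The sources differ on the days in hormone-deprived medium, and the lines were not authenticated in the study.

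These counts were tested with edgeR 4.0.16 under R 4.3.3 (filterByExpr with a minimum count of 10, TMM, quasi-likelihood test, Benjamini-Hochberg adjustment, threshold 0.05). Each line was fitted with time as a factor (15787 genes in Ishikawa and 15594 in T-47D cells), and the lines were compared in 1 fit of all 16 libraries (17090 genes). The SE was obtained by dividing a log2 fold change by the root of its F, and correlations used log2 CPM with a prior count of 2. Alternatives were DESeq2 1.42.0, RLE scaling, other filters and thresholds, a replicate block, the 4 and 8 h libraries as 1 group and leaving out each library. That grouping covered the Ishikawa libraries in the fit of that line, and the libraries of both lines, each as its own group, in the interaction test. TFF1 and TFF3 stayed out of the interaction test. The fits were tested on simulated counts.

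The members, gene lists and marker lists were chosen with earlier results of these data known. Named besides the 7 members were genes of the lists of relatives and of receptor and factors, the 3 largest and 3 smallest called changes after 8 h of the other E2 targets in each line, and the 2 genes most correlated with each member where the mean reached 50 counts per library. PRADX was named for its overlap and marker genes as markers. Same-numbered libraries did not deviate together (r of -0.115 to 0.0533 in Ishikawa and -0.0547 to 0.0595 in T-47D cells, 6 pairs of time points each), so the main fit had no block. No replicate pair was identical, and all differed by more than sampling noise (chi-square of 3.6 to 10.8 per gene).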

Additional observations from a re-analysis of the deposited data

Results flagged for a closer look

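For 4 of the 5 genes with counts in both lines, the change after E2 differed between T-47D and Ishikawa cells in the test of the difference itself, given here as T-47D minus Ishikawa on the log2 scale, where 2.67% of all genes were called after 2 h, 6.03% after 4 h and 10.0% after 8 h. GREB1 differed by 1.17 at 2 h, with the larger rise in T-47D cells, and by 0.50 at 8 h. The 8 h call of GREB1 was lost with only the time points compared (0.47, adjusted p = 0.0525). It was also lost in some of the fits that left out 1 library (0.29 to 0.44). The CA12 difference was -1.38 after 2 h, -2.15 after 4 h and -2.27 after 8 h, with the larger fold rise in Ishikawa cells. CTSD differed by 0.35 at 4 h and 0.71 at 8 h, with a rise in T-47D cells and Ishikawa values that passed no test. AGR2 differed by 1.00 at 8 h, a value from Ishikawa libraries of 30 to 136 counts that DESeq2 (adjusted p = 0.285) and the fit with a replicate block (0.0589) did not call. Groups of 2 libraries are too small to test for single libraries that stand apart.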

How the results depend on the processing

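No member's call turned to the opposite direction under any alternative run. Signs turned only for member changes that had passed no test, and only where 1 library was left out. The range over the fits without 1 library was, in Ishikawa cells, -0.30 to 0.05 for AGR2 after 2 h and -0.15 to 0.62 for PDZK1 after 4 h. For TFF3 in T-47D cells it was -0.05 to 0.21 after 2 h, -0.03 to 0.23 after 4 h, -0.05 to 0.07 from 2 to 4 h and -0.02 to 0.30 from 4 to 8 h. It was -0.10 to 0.07 for PDZK1 from 2 to 4 h, -0.12 to 0.62 for TFF1 and -0.06 to 0.01 for CA12 from 4 to 8 h in T-47D cells, and -0.19 to 0.10 for PDZK1 from 2 h to the later Ishikawa libraries. For the difference between the lines after 2 h it was -0.02 to 0.70 for PDZK1 and -0.00 to 0.39 for AGR2.

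The number of members called without 1 library ranged from 1 to 2 in Ishikawa cells after 2 h, 0 to 3 from 2 to 4 h and 1 to 3 from 4 to 8 h in T-47D cells, and for the difference between the lines 2 to 4 after 4 h and 2 to 4 after 8 h. With no filter on low counts 4 members were called in Ishikawa cells after 8 h, and 4 in the difference after 4 h, as also with only the time points compared, with the 4 and 8 h libraries as 1 group and at an adjusted p under 0.1. At an adjusted p under 0.01, 1 member was called from 2 to 4 h and 2 in the difference after 8 h, as also there with only the time points compared. Of the other E2 targets in Ishikawa cells, 2 in place of 1 were lower after 2 h with DESeq2, with no filter or at 0.1, 5 in place of 3 after 4 h with no filter and 1 at 0.01, and 1 in place of 4 after 8 h at 0.01. The causes were not tested.

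The replicate numbers did not pair the samples. A fit with the replicate number as a block moved the TFF3 value in T-47D cells after 8 h past the threshold (0.23, adjusted p = 0.0235) and the AGR2 difference after 8 h under it (1.01, adjusted p = 0.0589), and changed no other call on the 7 genes. TFF1 in T-47D cells, and PDZK1 and AGR2 in Ishikawa cells, had at most 153 counts per library.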
